A study of Gallus gallus with 9 samples.

Results

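The D-type cyclins CCND1, CCND2 and CCND3, the kinase CDK6 and the retinoblastoma protein gene RB1 were followed in cultured chicken primordial germ cells (PGCs) whose basic fibroblast growth factor (bFGF) was taken away and given back. CCND1 and CCND2 transcripts were lower after 24 h without bFGF and higher again after its return. The CCND2 rise was less firm, and several alternatives lost its call for at least some probe sets. CCND1 was called above its starting level at the end, though several alternative fits lost this call. CCND2 was not called against its starting level. CCND3 showed no call, with 95% intervals that ran from 0.890 to 1.13 times over the 3 comparisons. CDK6 and RB1 gave no call in any comparison of the main fit, with wider intervals. For RB1 the 2 tested probe sets differed. On withdrawal 1 was lower just short of a call (adjusted p = 0.0624 in limma) and was called under some alternatives, while the other did not show this. The genes were chosen with earlier results of these data known, and the study lists CCND1 and CCND2 among its bFGF-regulated genes. It gives folds for withdrawal and replacement for CCND1 but not for CCND2. The probe sets of the members were taken by symbol alone: every probe set whose single annotated symbol was CCND1, CCND2, CCND3, CDK4, CDK6 or RB1. This gave 15 of 38535 probe sets and 5 of 13009 named genes. CCND1 had 2 probe sets, CCND2 had 3, CCND3 had 2, CDK6 had 5 and RB1 had 3. Letters after a symbol (CCND1-a) tell the probe sets of a gene apart, in the order of their IDs, and the IDs stand above the panels of the plots. No probe set carried CDK4 as its only symbol, so CDK4 was not analysed here.

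D-type cyclins are the regulatory subunits of the kinases CDK4 and CDK6. In vertebrate cells growth factors acting through RAS and ERK raise D cyclin synthesis, and the cyclin D kinases then phosphorylate RB1, which lets go of E2F transcription factors and allows entry into S phase. The D cyclins are thus a point at which a growth factor such as bFGF can reach the cell cycle of germ cells in culture.

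The PGCs came from blood of the dorsal aorta of Korean Oge chicken embryos (stage 14 to 15). The blood of embryos of both sexes was mixed, and the cells were grown without feeder cells. RAW cells (0 h) were in medium with 10 ng/ml human bFGF. The -bFGF cells had then spent 24 h without it, and the +bFGF cells (48 h) had bFGF back for a further 24 h. All groups shared a medium with fetal bovine serum and chicken serum, so -bFGF cells lacked the added bFGF but not serum. Each group had 3 samples, each on its own Affymetrix Chicken Genome array. The study's methods state that 3 treated cell samples were extracted and that experiments were repeated 3 times, but neither they nor the labels say whether the replicates were separate cultures, so the p-values cover only the variation among these samples, which may be technical. Time in culture differed between all groups and cannot be told apart from the bFGF change.

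Intensities are linear values scaled by the authors' software so that each array had a trimmed mean of 500.1. Array medians were 71.6 to 82.6. The 95th percentile of 744 probe sets for viral and other non-chicken sequences, used here as the background level, was 32.0 to 40.5. The germ cell markers DDX4 and DAZL were bright in all groups: DDX4 averaged 19879 ± 1219 in -bFGF cells, 21057 ± 1261 in +bFGF cells and 22161 ± 504 in RAW cells (SD, n = 3 each). Changes were tested with limma on log2 intensities, in 1 fit of the 9 arrays over the 19220 probe sets whose mean was at or above the median, and a probe set was called at a Benjamini-Hochberg adjusted p under 0.05. Of the 15 member probe sets, 9 passed this filter, and the 6 that did not are given as values. Withdrawal sets -bFGF against RAW, replacement sets +bFGF against -bFGF, and net change sets +bFGF against RAW. Withdrawal and replacement share the -bFGF arrays, so their values are given side by side and are not independent of each other.

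On withdrawal 5 of the 9 tested member probe sets fell, against 5.33% of all tested probe sets. They were both probe sets of CCND1 and the 3 of CCND2. On replacement 5 of 9 rose, against 3.37% of all tested probe sets, and these too were the CCND1 and CCND2 probe sets. For the net change 2 of 9 rose, against 1.14% of all tested probe sets, both for CCND1. Because the genes were chosen with earlier results known, these counts describe them and do not test them against all probe sets. Tested against a change of 1.2-fold in place of 0, only CCND1-b was called on withdrawal, only CCND1-a and CCND1-b on replacement, and no member net. In bulk RNA, fewer cells with a transcript and less of it per cell cannot be told apart. In assays other than the arrays, the study found that cell state also changed once bFGF was removed. A smaller share of the cells was then in S phase and the phases after it, and apoptotic cells were more frequent. The part of such shifts in the array values given here was not tested.

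CCND1 encodes cyclin D1, whose transcription is the best known cell cycle target of growth factor and ERK signalling. CCND1-b, its brighter probe set, read 3948, 4041 and 4445 in RAW cells at 0 h, 2836, 2720.5 and 2677 in -bFGF cells at 24 h, and 4876, 5397 and 5490.2 in +bFGF cells at 48 h. No value of any group lay within the range of another, and the order was +bFGF highest, RAW next and -bFGF lowest. Of all tested probe sets, 14.2% had every -bFGF array below every RAW array, and 10.7% had every +bFGF array above every -bFGF array. The log2 change was -0.59 on withdrawal (SE 0.0638, adjusted p = 4.55e-05) and 0.94 on replacement (SE 0.0638, adjusted p = 5.55e-07), which put CCND1 in -bFGF cells at 0.663 times RAW and in +bFGF cells at 1.91 times -bFGF.

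The other CCND1 probe set, CCND1-a, gave the same order of groups. It read 3376, 3567 and 3607 in RAW cells, 2334, 2627 and 2885 in -bFGF cells, and 4387, 4555 and 4119 in +bFGF cells, again without overlap. The log2 change was -0.43 on withdrawal (SE 0.0738, adjusted p = 0.00207) and 0.74 on replacement (SE 0.0738, adjusted p = 2.33e-05). Over the 9 arrays the log2 values of both CCND1 probe sets had a Pearson correlation of 0.941, as a description of probe sets that measure 1 gene in the same libraries.

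After replacement CCND1 was higher than at the start. Its net log2 change was 0.34 for CCND1-b (95% interval 0.20 to 0.48, adjusted p = 0.0134) and 0.31 for CCND1-a (0.15 to 0.47, adjusted p = 0.0420). All 3 +bFGF arrays were above all 3 RAW arrays with both probe sets, as were the +bFGF arrays of 10.3% of all tested probe sets. The calls were less firm than those of withdrawal and replacement. CCND1-b lost its net call without RAW replicate 1 (adjusted p = 0.0646), RAW replicate 2 (0.0634), +bFGF replicate 2 (0.0601) or +bFGF replicate 3 (0.0588), with log2 changes between 0.31 and 0.33. CCND1-a lost it without RAW replicate 1 (0.147), RAW replicate 2 (0.110), RAW replicate 3 (0.0728), -bFGF replicate 2 (0.0706), +bFGF replicate 1 (0.0723), +bFGF replicate 2 (0.149) or +bFGF replicate 3 (0.0643). Without the intensity trend both net calls were lost (0.146 for CCND1-a, 0.0790 for CCND1-b). CCND1-a also lost its net call without the filter (0.0829), with quantile normalization (0.0539) and with the replicate block (0.0632). The count of 2 became 0 without RAW replicate 1, RAW replicate 2, +bFGF replicate 2 or +bFGF replicate 3. It became 1 when the array left out was RAW replicate 3, -bFGF replicate 2 or +bFGF replicate 1. The study's own criteria ask for a fold whose lower 90% limit exceeds 1.2 and for means more than 50 apart. They were applied here to the deposited intensities, whereas the study applied them to probe-level data and reported fewer changed transcripts. Applied here, they called CCND1 with both probe sets on withdrawal (fallen, as 1.85% of all probe sets) and on replacement (risen, as 1.26%). They called neither probe set for the net change (0.432% of all probe sets risen).

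**Figure D1:**
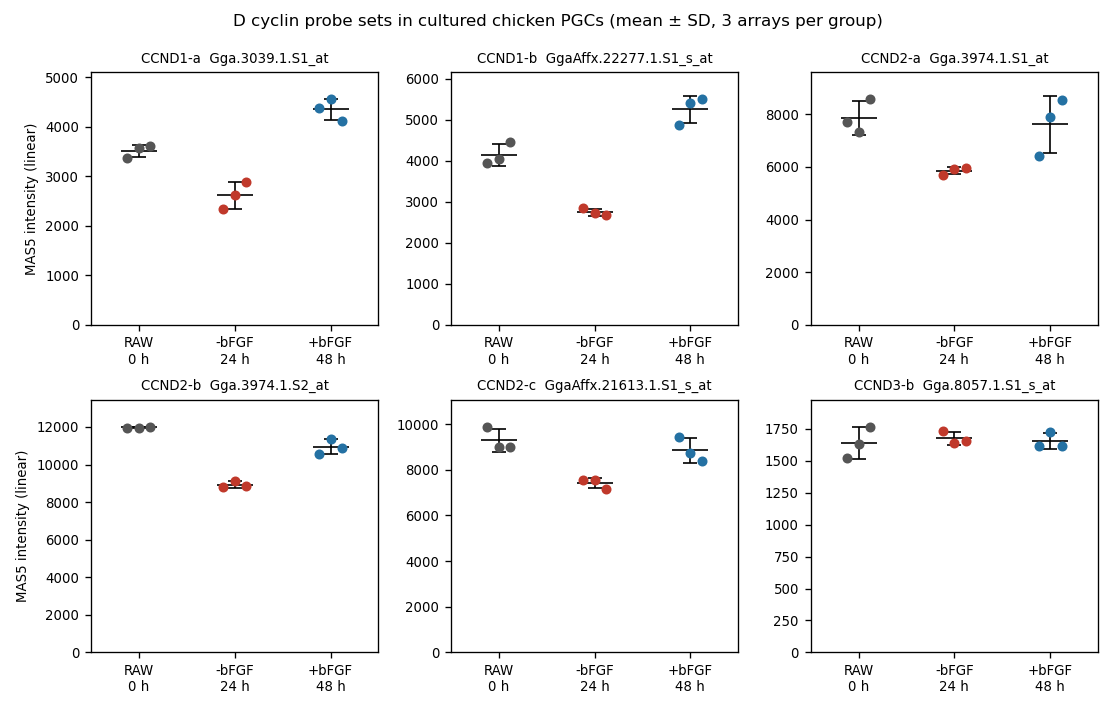
Linear intensity (y axis, from 0) of the 6 tested D cyclin probe sets in RAW (0 h), -bFGF (24 h) and +bFGF (48 h) cells. Points are single arrays, horizontal marks are means and bars are SD (3 arrays per group). In every CCND1 and CCND2 panel the -bFGF points lie below those of both other groups, while the CCND3 points overlap.

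CCND2 encodes cyclin D2, a D cyclin with a part in germ cell and gonad growth in the mouse. Its brightest probe set, CCND2-b, read 11953, 11970.2 and 11996 in RAW cells, 8779.5, 9133 and 8842 in -bFGF cells, and 10567, 11386 and 10899.6 in +bFGF cells. The groups did not overlap, and RAW cells were highest. Of all tested probe sets, 14.2% had every -bFGF array below every RAW array. Every +bFGF array was above every -bFGF array for 10.7%, and below every RAW array for 11.8%. The log2 change was -0.43 on withdrawal (SE 0.0474, adjusted p = 6.20e-05) and 0.30 on replacement (SE 0.0474, adjusted p = 0.00157). These calls held when any single array was left out, though the study's criteria called only the fall.

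The other 2 CCND2 probe sets moved in the same directions. CCND2-a read 7692, 7330.0 and 8560.4 in RAW cells, 5705, 5909.8 and 5945 in -bFGF cells, and 6426, 7892 and 8540.5 in +bFGF cells. CCND2-c read 9870.0, 8992 and 9016 in RAW cells, 7567, 7556 and 7171 in -bFGF cells, and 9439, 8733 and 8369.9 in +bFGF cells. With both, each -bFGF array was below every array of the other groups, and the RAW and +bFGF arrays overlapped. The shares of all tested probe sets given with CCND2-b apply to these separations too.

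The withdrawal log2 change was -0.42 (adjusted p = 0.00818) for CCND2-a and -0.32 (adjusted p = 0.00328) for CCND2-c, and both calls held without any single array. Without the intensity trend CCND2-a lost its withdrawal call (0.0548), and the study's criteria did not call CCND2-c. The replacement log2 change was 0.37 (adjusted p = 0.0222) for CCND2-a and 0.25 (adjusted p = 0.0202) for CCND2-c. Neither replacement call held throughout, and both were lost without the filter (0.0524 for CCND2-a, 0.0509 for CCND2-c), without the intensity trend (0.104 and 0.0991) and by the study's criteria. CCND2-a lost it without -bFGF replicate 1 (0.0697), -bFGF replicate 2 (0.0673), -bFGF replicate 3 (0.0582), +bFGF replicate 2 (0.0817) or +bFGF replicate 3 (0.0945). CCND2-c lost it without -bFGF replicate 2 (0.0612), -bFGF replicate 3 (0.0851), +bFGF replicate 1 (0.0607) or +bFGF replicate 2 (0.0524). The count of 5 member probe sets risen on replacement was 3 without -bFGF replicate 2, without -bFGF replicate 3 and without +bFGF replicate 2.

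CCND2 gave no net call. The net log2 change was -0.13 for CCND2-b (95% interval -0.23 to -0.03, adjusted p = 0.168), -0.05 for CCND2-a (-0.24 to 0.14, adjusted p = 0.809) and -0.07 for CCND2-c (-0.20 to 0.06, adjusted p = 0.570). The order of the CCND2 levels was thus RAW and +bFGF, which did not differ at the test's threshold, above -bFGF.

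CCND3 encodes cyclin D3, which is best known from lymphoid and erythroid cells. Its tested probe set, CCND3-b, read 1520.3, 1631 and 1763 in RAW cells, 1735, 1640.3 and 1655 in -bFGF cells, and 1616, 1725 and 1614 in +bFGF cells. All groups overlapped, and the RAW arrays alone spanned the whole range. The log2 change was 0.04 on withdrawal (95% interval -0.11 to 0.18, adjusted p = 0.791), -0.02 on replacement (-0.17 to 0.12, adjusted p = 0.895) and 0.01 for the net change (-0.13 to 0.16, adjusted p = 0.943). As folds, the intervals ran from 0.926 to 1.13 on withdrawal and from 0.890 to 1.09 on replacement, so at this precision changes of the size seen for CCND1 lay outside them.

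The other CCND3 probe set, CCND3-a, was too dim to be tested and was above the background level on 4 of 9 arrays. It read 17.1, 18.4 and 25.5 in RAW cells, 50.9, 44.5 and 33.3 in -bFGF cells, and 29.3, 55.1 and 42.3 in +bFGF cells. The RAW arrays were below all others, at values within the background. Every -bFGF array lay above every RAW array for 17.3% of the tested probe sets, and every +bFGF array for 10.3%.

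**Figure D2:**
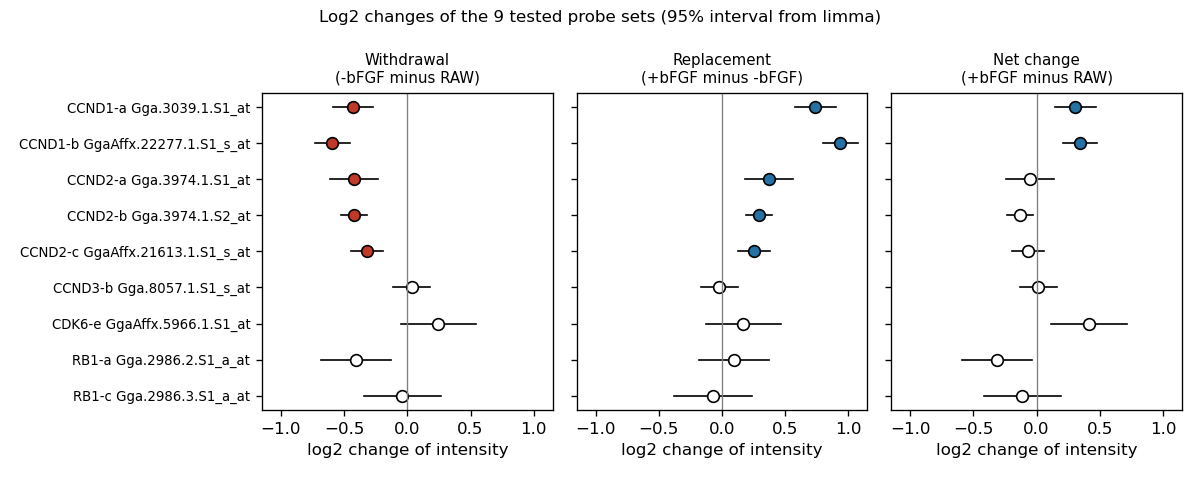
Log2 change of intensity (x axis) of the 9 tested member probe sets on withdrawal, on replacement and for the net change. Points are limma estimates with 95% intervals, red for called falls, blue for called rises and white for changes that were not called. CCND1 is the only gene with a called net change.

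The D cyclins were also compared with each other inside each array, with the brightest tested probe set of each gene. The level of such a ratio is not read, since probe sets differ in sensitivity. Its changes hold for the probe sets used, as the size of a change can differ between probe sets of 1 gene. Relative to the RAW mean, the log2 ratio of CCND1 to CCND2 was -0.10, -0.21 and -0.19 on the -bFGF arrays and 0.42, 0.46 and 0.54 on the +bFGF arrays, against -0.07, -0.03 and 0.10 on the RAW arrays. The groups did not overlap, and the ratio was highest after bFGF was returned. It changed by -0.17 on withdrawal, 0.64 on replacement and 0.47 for the net change. The withdrawal fall of the ratio rested on the use of CCND1-b. CCND1-a changed on withdrawal by -0.432, against -0.425 for CCND2-b, so with it the 2 genes fell alike. On replacement CCND1-a changed by 0.739 and CCND2-b by 0.296, and net by 0.307 and -0.129. An exact permutation test of the spread between groups over the 280 distinct splits of 9 arrays gave p = 0.00357, the smallest that it can give, for the 1 ratio tested. Both genes were chosen with earlier results of these data known, so this p is only descriptive.

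The ratios to CCND3 are given without a test, as they were added with the values known. The ratio of CCND1 to CCND3 changed by -0.63 on withdrawal, 0.96 on replacement and 0.33 for the net change. The ratio of CCND2 to CCND3 changed by -0.46, 0.32 and -0.14. So relative to CCND3 both other D cyclins were lower in -bFGF cells than in either other group, and only CCND1 was above its RAW ratio in +bFGF cells.

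**Figure D3:**
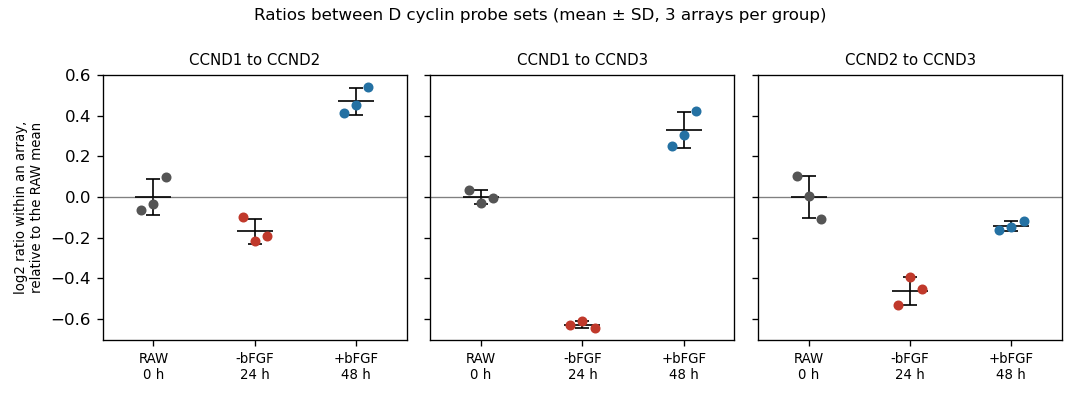
Log2 ratio between probe sets of D cyclin genes within each array (y axis), relative to the mean of the RAW arrays, in RAW (0 h), -bFGF (24 h) and +bFGF (48 h) cells. Points are arrays, marks are means and bars are SD (3 arrays per group). The +bFGF arrays lie above RAW for CCND1 to CCND2 and for CCND1 to CCND3, and below the RAW mean for CCND2 to CCND3.

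CDK6 is a catalytic partner of the D cyclins. Only 1 of its 5 probe sets was bright enough to be tested. CDK6-e read 254, 268 and 216 in RAW cells, 265, 340.0 and 273 in -bFGF cells, and 356, 288 and 340.0 in +bFGF cells. The -bFGF arrays overlapped those of both other groups. The +bFGF arrays were all above the RAW arrays, as were those of 10.3% of all tested probe sets. The log2 change was 0.25 on withdrawal (95% interval -0.05 to 0.54, adjusted p = 0.296), 0.17 on replacement (-0.13 to 0.47, adjusted p = 0.543) and 0.41 for the net change (0.12 to 0.71, adjusted p = 0.136). No CDK6 change was called, and the intervals leave room for a rise of up to 1.64 times over RAW in +bFGF cells.

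The dim CDK6 probe sets showed no separation of the groups. CDK6-b was above the background level on all 9 arrays and read 43.3 to 91.8, and CDK6-a was above it on 8 and read 35.6 to 78.2. CDK6-d and CDK6-c were above it on 3 and 1 arrays. With each of the 4 the groups overlapped in every comparison.

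RB1 encodes the pocket protein that cyclin D kinases phosphorylate. Its probe set RB1-a read 362, 367 and 406 in RAW cells, 313, 265 and 280.4 in -bFGF cells, and 257, 315 and 349 in +bFGF cells. All -bFGF and all +bFGF arrays were below all RAW arrays, and those of -bFGF and +bFGF overlapped. Every -bFGF array lay below every RAW array for 14.2% of all tested probe sets, and every +bFGF array for 11.8%. The log2 change was -0.40 on withdrawal (95% interval -0.68 to -0.13, adjusted p = 0.0624), 0.09 on replacement (-0.19 to 0.37, adjusted p = 0.746) and -0.31 for the net change (-0.59 to -0.03, adjusted p = 0.225). The withdrawal value was on the other side of the threshold without +bFGF replicate 1 (adjusted p = 0.0329) and in a fit of the -bFGF and RAW arrays alone (0.0401).

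The second tested RB1 probe set did not show this. RB1-c read 474, 309 and 381 in RAW cells, 358, 388 and 368 in -bFGF cells, and 315, 369.9 and 379 in +bFGF cells. All groups overlapped, and the log2 change was -0.04 on withdrawal (95% interval -0.35 to 0.26, adjusted p = 0.887), -0.07 on replacement (-0.38 to 0.23, adjusted p = 0.830) and -0.11 for the net change (-0.42 to 0.19, adjusted p = 0.728). The log2 values of both RB1 probe sets had a Pearson correlation of 0.271 over the 9 arrays, against 0.941 for the CCND1 pair and 0.640 to 0.885 for the CCND2 pairs. The remaining RB1 probe set, RB1-b, was above the background level on 1 array.

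**Figure D4:**
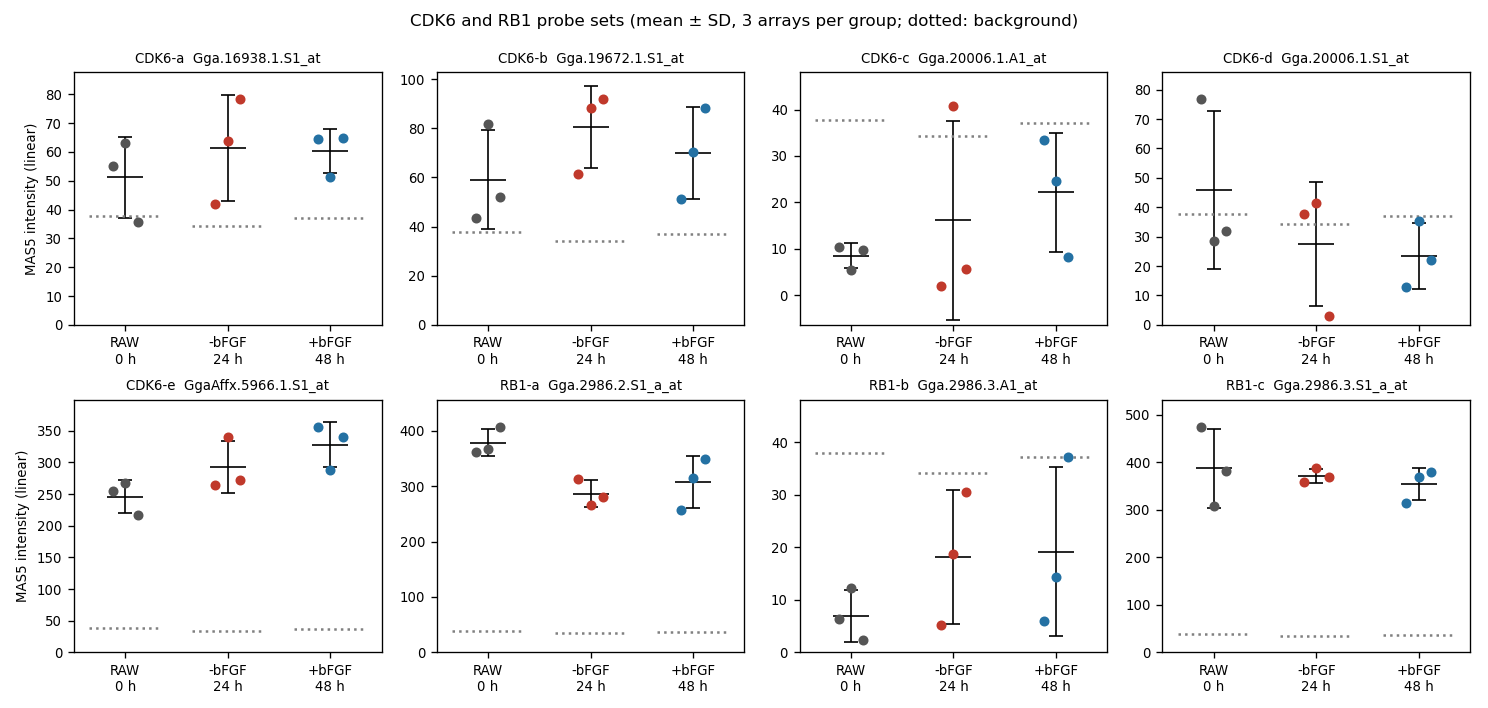
Linear intensity (y axis) of all 5 CDK6 and 3 RB1 probe sets in RAW (0 h), -bFGF (24 h) and +bFGF (48 h) cells. Points are arrays, marks are means, bars are SD (3 arrays per group) and dotted lines are the group mean of the background level. Only CDK6-e, RB1-a and RB1-c lie far above the background.

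The genes whose pattern over the 9 arrays was most like that of CCND1 were SMAD2, a transducer of activin and TGF-beta signals (Pearson r = 0.993 of log2 values), CARHSP1, an RNA-binding phosphoprotein (0.992), and SGK1, a serum- and glucocorticoid-regulated kinase (0.988), out of 9124 genes compared. SGK1 averaged 719 ± 65.4 in -bFGF cells, 3189 ± 47.9 in +bFGF cells and 1913 ± 94.2 in RAW cells (SD, n = 3 each), with log2 changes of -1.41 on withdrawal, 2.15 on replacement and 0.74 net. SMAD2 changed by -0.58, 0.93 and 0.35, close to the values of CCND1, and CARHSP1 by -0.94, 1.48 and 0.54. These genes, like CCND1, were above RAW after replacement. They were chosen for the likeness, so no test is given.

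The genes most like CCND2 were STMN2, a microtubule-destabilizing protein of the stathmin family (r = 0.995), GPM6B, a membrane proteolipid (0.988), and SEC14L1 (0.985). STMN2 averaged 527.0 ± 25.6 in -bFGF cells, 886 ± 74.4 in +bFGF cells and 1091 ± 61.6 in RAW cells (SD, n = 3 each), with log2 changes of -1.05 on withdrawal, 0.75 on replacement and -0.30 net. GPM6B changed by -0.61, 0.38 and -0.23, and SEC14L1 by -0.48, 0.37 and -0.11. As with CCND2, their +bFGF means were below RAW. None of these net changes was called in limma (adjusted p = 0.0760 for STMN2, 0.167 for GPM6B and 0.464 for SEC14L1). These genes too were chosen for the likeness.

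The pathway lists around the D cyclins held 84 tested genes, of which 6 fell and 6 rose on withdrawal, 3 fell and 4 rose on replacement, and 1 fell net. Each gene was taken at its brightest tested probe set, and of all 9125 such genes 5.99% fell and 6.83% rose on withdrawal, and 4.21% fell and 4.02% rose on replacement. For the net change 1.85% fell. The shares among the 84 genes together were close to these, while single small lists could differ. For the list genes named below, only losses with single arrays left out stand beside the calls. Losses without the intensity trend are given in the closing section. The median log2 change of all genes was 0.03 on withdrawal and -0.02 on replacement. Among other cyclins and kinases of the G1 to S step, 1 of 4 tested genes passed. CCNA2, the cyclin A of S phase and mitosis, fell by 0.21 on the log2 scale on withdrawal (adjusted p = 0.0236) and rose by 0.30 on replacement (adjusted p = 0.00282). Its withdrawal call was lost without RAW replicate 2 or 3 or -bFGF replicate 2 or 3 (adjusted p = 0.0545 to 0.0864), and its replacement call held without any single array. CCNE1, the cyclin E that acts after cyclin D, had log2 changes of -0.34 (adjusted p = 0.112) and 0.29 (0.219), and CCNE2 had 0.18 (0.109) and -0.18 (0.153). The list's median was -0.21 on withdrawal and 0.17 on replacement.

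Of 8 listed CDK inhibitors 2 were tested, and in limma 0 passed in any comparison, with 1 at an unadjusted p under 0.05 on withdrawal, 1 on replacement and 0 net. With the probe sets of each gene averaged, 1 of them rose on withdrawal. CDKN1B, the inhibitor p27 that cyclin D complexes bind, had log2 changes of 0.18 on withdrawal (adjusted p = 0.188) and -0.02 on replacement (0.925). CDKN3, a phosphatase that acts on CDKs, had 0.15 (0.222) and -0.17 (0.204). CDKN1A, CDKN2A, CDKN2B and CDKN2C were too dim to be tested, and no probe set carried CDKN1C or CDKN2D as its only symbol. The values given here do not cover those genes.

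Among the pocket proteins, E2F and DP factors 1 of 11 tested genes fell and 1 rose on withdrawal, and 1 rose on replacement. TFDP3, annotated as a DP partner of E2F, fell by 0.48 (adjusted p = 7.05e-05) and rose by 0.26 (0.00901), the replacement call being lost without -bFGF replicate 2 (0.0529). E2F7, a repressor of E2F targets, rose by 0.34 on withdrawal (0.0463), which was lost without RAW replicate 2 or 3, -bFGF replicate 1 or 3 or +bFGF replicate 2 or 3 (0.0569 to 0.150). The relatives of RB1 did not pass: RBL1 had log2 changes of 0.08 on withdrawal (adjusted p = 0.376) and -0.05 on replacement (0.641), and RBL2 had 0.11 (0.484) and 0.05 (0.821). The activator E2F1 had 0.15 (0.277) and -0.06 (0.738). The list's median was 0.05 on withdrawal and -0.03 on replacement.

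Among 12 tested DREAM complex members and RB corepressors 4 rose and 1 fell on withdrawal, and 1 fell on replacement. Of all genes 6.83% rose and 5.99% fell on withdrawal, and 4.21% fell on replacement. MYBL1, a MYB factor known from male germ cells in the mouse, rose by 0.35 (adjusted p = 0.0258) and fell by 0.43 on the log2 scale on replacement (0.0104). Its withdrawal call was lost without RAW replicate 2 or 3 or -bFGF replicate 2 or 3 (0.0616 to 0.103), and its replacement call without -bFGF replicate 3 (0.0588). The histone-binding proteins RBBP7 and RBBP4 moved oppositely on withdrawal, RBBP7 by 0.29 (0.0308) and RBBP4 by -0.19 (0.0162). RBBP7 lost its call without RAW replicate 1 or 3 or -bFGF replicate 1 or 2 (0.0846 to 0.135), and RBBP4 without RAW replicate 2 or 3 or -bFGF replicate 2 or 3 (0.0515 to 0.0649). MYBL2 rose by 0.21 (0.0492) and lost its call without any array but +bFGF replicate 1 (0.0559 to 0.178). LIN9, outside the naming rule and named after its value was seen, rose by 0.20 (0.0440) and lost its call without any array but RAW replicate 1 and +bFGF replicate 1 (0.0501 to 0.180). The list's median was 0.00 on withdrawal and -0.03 on replacement.

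In the CDK-activating kinase, 1 of 3 tested genes passed. CCNH, its cyclin, fell by 0.28 on the log2 scale on replacement (adjusted p = 0.0441) and lost its call without any array but -bFGF replicate 1 and +bFGF replicate 1 (0.0545 to 0.169). Among 14 tested genes of cyclin D and CDK turnover and folding, CDC37, the kinase co-chaperone that CDK4 and CDK6 use, was the 1 called gene. It fell by 0.50 on the log2 scale on withdrawal (0.00115), which held without any single array, and rose by 0.29 on replacement (0.0397), which was lost without any array but RAW replicate 2 and RAW replicate 3 (0.0504 to 0.137). SKP2, an F-box protein that marks p27 for destruction, had 0.01 (0.943) and -0.01 (0.944). The list's median was -0.08 on withdrawal and 0.04 on replacement.

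Of 16 tested E2F target genes of S phase, 1 fell on withdrawal. MCM2, a subunit of the replicative helicase, fell by 0.36 on the log2 scale (adjusted p = 0.00289), which held without any single array. It was also lower net by 0.27 (0.0430), which was lost without any array but +bFGF replicate 3 (0.0542 to 0.113). PCNA, the sliding clamp of DNA polymerase, had -0.07 (0.502) on withdrawal and 0.17 (0.0997) on replacement. On replacement 0 of 16 passed in limma, with 4 lower and 1 higher at an unadjusted p under 0.05. PCNA was the higher one. The lower ones, named after their values were seen, were RRM2, a ribonucleotide reductase subunit, with -0.22 (0.0888), CCNE2 with -0.18 (0.153), MCM3 with -0.17 (0.190) and POLA1 with -0.15 (0.179). RRM2 had 0.23 (0.0555) on withdrawal. The list's median was 0.03 on withdrawal, that of all genes, and -0.07 on replacement.

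Among 23 other tested cyclins and CDKs, 1 fell and 1 rose in each of withdrawal and replacement. CDK17 fell by 0.33 on withdrawal (adjusted p = 0.0107) and rose by 0.30 on replacement (0.0215). The first call was lost without -bFGF replicate 3 (0.0520), the second without -bFGF replicate 3 (0.104) or +bFGF replicate 2 (0.0817). CCNG1, a p53-induced cyclin, rose by 0.22 on withdrawal (0.0261), lost without RAW replicate 1, 2 or 3 or -bFGF replicate 1 or 3 (0.0513 to 0.0951), and fell by 0.30 on the log2 scale on replacement (0.00512), which held without any single array. CDK1, the kinase of mitosis, had -0.03 (0.802) and 0.01 (0.964).

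**Figure D5:**
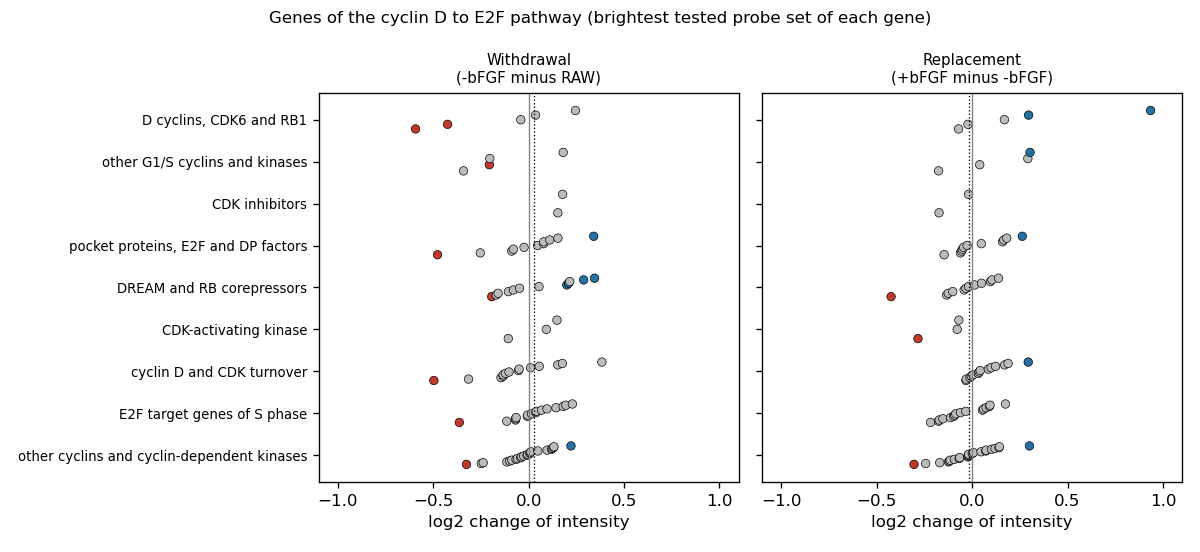
Log2 change of intensity (x axis) on withdrawal and on replacement for the tested member genes and the tested genes of each pathway list (rows; the cell type marker lists are not drawn), 1 point per gene at its brightest probe set, ordered by value within a row. Red points are called falls, blue points called rises and grey points were not called, and the dotted line is the median of all 9125 genes. CCND1 has the lowest point on withdrawal and the highest on replacement among the genes drawn.

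Other measures also differed between the groups, some of them in the order seen for CCND1 or CCND2 and some not. Of 5 tested fibroblast and mesenchyme markers 4 fell on withdrawal: COL1A2 with a log2 change of -3.18 (adjusted p = 2.82e-10), PRRX1 with -0.56 (0.00426), COL1A1 with -0.53 (0.0460) and FN1 with -0.40 (0.0255). Of all genes 5.99% fell and 6.83% rose on withdrawal. COL1A2 and PRRX1 held without any single array. COL1A1 was lost without any array but +bFGF replicate 1 and +bFGF replicate 2 (0.0579 to 0.177 among the rest), and FN1 without RAW replicate 1 or 2 or any -bFGF array (0.0652 to 0.114). COL1A2 alone of the 5 rose on replacement, by 2.82 (5.39e-10). FN1 did not come back, with a log2 change of -0.30 on replacement (0.108), and fell net, with -0.71 (0.00325). COL3A1, the brightest of the 5, did not fall on withdrawal, with a log2 change of 0.06 (0.623). It averaged 4418 in -bFGF cells and 4235 in RAW cells, where COL1A2 averaged 263 and 2385. The summed intensity of the list was 5726 to 6042 in -bFGF cells, 6577 to 7629.6 in +bFGF cells and 7684 to 8841 in RAW cells. Most of the difference between the -bFGF and RAW sums of this list came from COL1A2, which the study lists among its bFGF-regulated genes. The summed leukocyte markers were 963 to 993 in -bFGF cells, 909.8 to 934 in +bFGF cells and 824 to 836 in RAW cells, with 1 of 4 tested genes risen on withdrawal. The risen gene was CYBB, with a log2 change of 0.37 (0.0248), lost without RAW replicate 2 or 3 or -bFGF replicate 2 or 3 (0.0689 to 0.111). Most of the difference between the leukocyte sums of -bFGF and RAW cells came from CYBB, which averaged 576 in -bFGF cells and 444 in RAW cells. PTPRC averaged 123 and 93.5, LCP1 114 and 114, and CD74 162 and 177. The rest of the 7 listed leukocyte genes were too dim to be tested. Of 6 tested germ cell markers DAZL fell by 0.27 on the log2 scale on withdrawal (0.0342), which was lost without any RAW array or -bFGF replicate 2 or 3 (0.0560 to 0.122). The log2 ratio of the 3' to the 5' actin control probe set, a sign of RNA quality, was 0.70 to 0.78 on -bFGF arrays, 0.33 to 0.59 on +bFGF arrays and 0.62 to 0.73 on RAW arrays. The same ratio of the GAPDH control was -0.18 to -0.14 on -bFGF arrays, -0.16 to -0.08 on +bFGF arrays and -0.07 to -0.05 on RAW arrays. So for GAPDH the -bFGF and the +bFGF arrays were all below RAW. For actin the -bFGF and RAW arrays overlapped, and the +bFGF arrays were all below those of both other groups. The part of these cell type and RNA measures in the CCND1 and CCND2 values was not tested.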

How the data were processed

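Transcripts were measured on 9 Affymetrix Chicken Genome arrays, 3 each for RAW, -bFGF and +bFGF PGCs. The deposited values are linear intensities that the authors computed for each probe set with MAS5 (version not given in the sources used here). The study's own comparisons were made in dChip from probe-level data, which was not used here. Without the 96 array control probe sets, 38439 remained. Symbols were taken from the platform annotation supplied with the table (27168 probe sets with 1 symbol, 177 with several, 11094 with none), and 26853 of the named probe sets have their gene ID in a RefSeq gene table (GRCg7b) with no differing symbol. No probe or genome sequence and no coordinates were used here.

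Samples were grouped by their labels. Log2 intensities, with no offset, were fitted in limma 3.58.1 (R 4.3.3) with 1 mean per group and variances that follow a trend with intensity. Probe sets at or above the median of the mean log2 value were tested (19220), two-sided, with Benjamini-Hochberg adjustment within each comparison. SE and intervals come from this fit, SD from the 3 arrays of a group, whose number limits precision. The fit was tested on simulated data. Genes named are the members, the 3 genes most correlated with each called member, and up to 3 called genes of each pathway list and comparison. The members and lists were chosen with earlier results of these data known. Alternatives were dropping the filter or raising it to the 75th percentile, quantile normalization, centring arrays on their 75th percentile, adding 50 before the logarithm, no intensity trend, fitting only the 2 groups compared, a replicate block, testing against a 1.2-fold change, the study's criteria on linear intensities with errors from the replicate arrays, averaged probe sets, and each array left out in turn.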

Additional observations from a re-analysis of the deposited data

How the results depend on the processing

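The number of member probe sets fallen on withdrawal was 5, and 4 to 6 under the alternatives other than a test against a 1.2-fold change, which called 1. The number risen on replacement was 5, and 3 without the filter, 3 without the intensity trend, 2 against a 1.2-fold change and 2 by the study's criteria. The net number was 2, and 1 without the filter, 1 with quantile normalization, 0 without the intensity trend, 0 against a 1.2-fold change and 0 by the study's criteria. The cause was not tested, except that a test against a 1.2-fold change asks for more by its construction. With single arrays left out the counts ran from 5 to 6 on withdrawal, 3 to 5 on replacement and 0 to 2 net. The replacement change of the CCND1 to CCND2 log2 ratio was 0.53 to 0.67 under all alternatives run on it (exact permutation p of 0.00357 to 0.00714 across the groups, again only descriptive).

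Same-numbered arrays did not deviate together (correlations -0.21 to 0.06 over 9 pairs, against -0.15 to 0.17 over 18 differently numbered pairs). With so few arrays per group, these correlations cannot tell whether same-numbered samples came from the same culture. With the replicate block 5, 5 and 1 member probe sets were called on withdrawal, on replacement and net.

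Signs turned only for changes that were not called. CCND3-b on replacement was 0.0149 with centring on the 75th percentile. With 1 array left out, the net change of CCND2-a ran from -0.139 to 0.0657. CCND3-b ran from -0.0167 to 0.0903 on withdrawal, -0.0537 to 0.00282 on replacement and -0.0388 to 0.0681 net. RB1-a ran from -0.0073 to 0.215 on replacement. RB1-c ran from -0.195 to 0.115 on withdrawal, -0.121 to 0.0118 on replacement and -0.267 to 0.0432 net. Counts of called genes in the pathway lists kept within 1.5 times in 789 values and moved further in 123. A list with no called gene in both the main fit and the alternative counts as kept. The study's criteria were not run on the lists. Without the intensity trend the withdrawal calls of CCNA2 (adjusted p = 0.0823), E2F7 (0.0808), LIN9 (0.111), RBBP4 (0.0813), RBBP7 (0.0805), MYBL2 (0.105), MYBL1 (0.0527) and CCNG1 (0.0933) were lost. So were the replacement calls of TFDP3 (0.0513), CCNH (0.102) and CDC37 (0.108) and the net call of MCM2 (0.130). Other alternatives also lost some calls of list genes, which are not given gene by gene.

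Limits: signal close to background left 6 of 15 member probe sets untested, and with 3 arrays per group the SE of the log2 change was 0.129 to 0.142 for CDK6 and RB1, against 0.0474 to 0.0887 for the D cyclins.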
